A study of Homo sapiens with 4 samples.

Results

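Nuclear transport receptors and the Ran GTPase cycle were examined in the TE5 line of esophageal squamous carcinoma after depletion of the nucleoporin NUP153. The genes are 32 named karyopherins, Ran regulators and related factors, taken as the rows of the deposited count table whose symbol equals one of the names. Each name matched 1 row, so the group holds 32 of the 56657 rows of the table. By role they are 6 importin alphas, 10 import receptors of the importin beta family, 7 exportins, 6 genes of the Ran cycle and 3 others. All 32 passed the filter on low counts, next to 16817 tested genes in all.

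The knockdown cells carried a hairpin RNA against NUP153 (shNUP153, 2 libraries, labelled as NUP153 knockdown) and the others a control hairpin (shControl, 2 libraries, labelled wild type). Both groups received their hairpin by lentivirus, went through puromycin selection and were harvested at day 7. Neither the hairpin sequences nor whether both shNUP153 libraries carry the same one were stated in the labels, so effects of the hairpin on other genes cannot be told apart from effects of NUP153 loss. The labels number the replicates but do not tie them to separate infections or cultures, and p-values therefore measure only the spread between these libraries, which may be technical.

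A protein carrying a nuclear localization signal is bound in the cytoplasm by an import receptor, either directly or through an importin alpha adaptor, and crosses the nuclear pore by contacts with nucleoporins rich in phenylalanine-glycine repeats, NUP153 among them. RanGTP, made in the nucleus by the exchange factor RCC1, releases import cargo and loads exportins. In the cytoplasm RANGAP1 with RANBP1 drives hydrolysis of the GTP on Ran, which frees export cargo, and NUTF2 carries RanGDP back into the nucleus. The importin alphas are themselves returned to the cytoplasm by the exportin CSE1L.

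Total counts were 25247932 and 23396626 in the shNUP153 libraries and 22606593 and 27396268 in the shControl libraries. NUP153 itself measured 67.9 and 81.9 CPM (read counts scaled to the size of the library, here with TMM factors between libraries) in shNUP153 cells, against 149 and 142 CPM in shControl cells, a 1.94-fold reduction (edgeR adjusted p = 1.051e-14). Of 10 squamous and epithelial markers, 9 reached 5 CPM in every library. The tenth, the basal keratin gene KRT14, stayed at 0.231 to 0.548 CPM. These markers were not level between the groups. EPCAM was 2.02-fold, KRT5 1.60-fold, CDH1 1.54-fold, SOX2 1.27-fold and KRT6A 1.17-fold lower in shNUP153. KRT17 was 1.70-fold and KRT18 1.17-fold higher (edgeR adjusted p under 0.05 for each). TP63 and KRT8 did not pass. All 4 immune markers were below 1 CPM in every library (summed 0.308 to 0.801 CPM in shNUP153 and 0.586 to 0.863 CPM in shControl), and the fibroblast gene DCN had no counts. Summed over 3 endothelial markers the level was 24.02 to 25.1 CPM in shNUP153 and 11.1 to 12.2 CPM in shControl, nearly all of it CDH5, while PECAM1 did not exceed 0.116 CPM. The 5 fibroblast markers summed to 17.35 to 17.36 CPM in shNUP153 and 13.6 to 14.8 CPM in shControl, nearly all of it COL1A1. Any part of other cell types in the results was not tested.

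With NUP153 reduced, the transport genes that changed were nearly all lower, and by small amounts. By edgeR's quasi-likelihood test (adjusted p under 0.05 over all tested genes), 14 of the 32 genes fell, 1 rose and 17 did not pass. The falls were found among import receptors (6 of 10), exportins (4 of 7) and the Ran cycle (4 of 6), and the rise was that of KPNA4, an importin alpha. Across all tested genes 32.4% passed the same test, 15.0% higher and 17.4% lower. Among the 32, 46.9% passed, 3.13% higher and 43.8% lower. These genes are well expressed, between the 36.9 and 99.1 percentile of tested genes by shControl CPM, and abundant genes pass more often. Of the 10466 tested genes inside the same range of shControl CPM, 42.2% passed, 17.0% higher and 25.2% lower. The share of calls among the transport genes was thus near that of genes in this range, with more of the calls on the lower side. The range is wide and its genes were not matched to the 32 in abundance within it. No set test was run on that difference.

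The changes were small throughout. The 14 genes that fell were 1.10-fold to 1.32-fold lower, and none of the 32 differed by more than 1.5-fold, as 12.7% of all tested genes and 4.65% of those in the same abundance range did. Their median log2 fold change was −0.091, against 0.0054 for all tested genes and −0.028 for the abundance range. The median standard error was 0.052 on the log2 scale, compared with 0.098 over all tested genes and 0.071 in the abundance range. Genes of that range were thus measured less precisely than the 32. For 23 of the 32 genes (71.9%) no shNUP153 value lay inside the shControl range or the reverse, 18 of them lower and 5 higher in shNUP153, where 64.4% of all tested genes and 71.8% of those in the same abundance range had groups that did not overlap. Within groups the libraries of a gene differed by a median of 0.034 (shNUP153) and 0.058 (shControl) on the log2 scale.

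The scaling of the libraries mattered for the balance of calls. With total-count scaling 5 of the 32 were called higher and 10 lower, and with upper-quartile scaling 3 higher and 11 lower. Over all tested genes, 62.8% of calls were on the higher side with total-count scaling and 57.6% with upper-quartile scaling, against 46.3% with TMM. None of the 15 called genes changed sign under any of the 13 alternatives run, and 10 of them passed in each one.

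**Figure D1:**
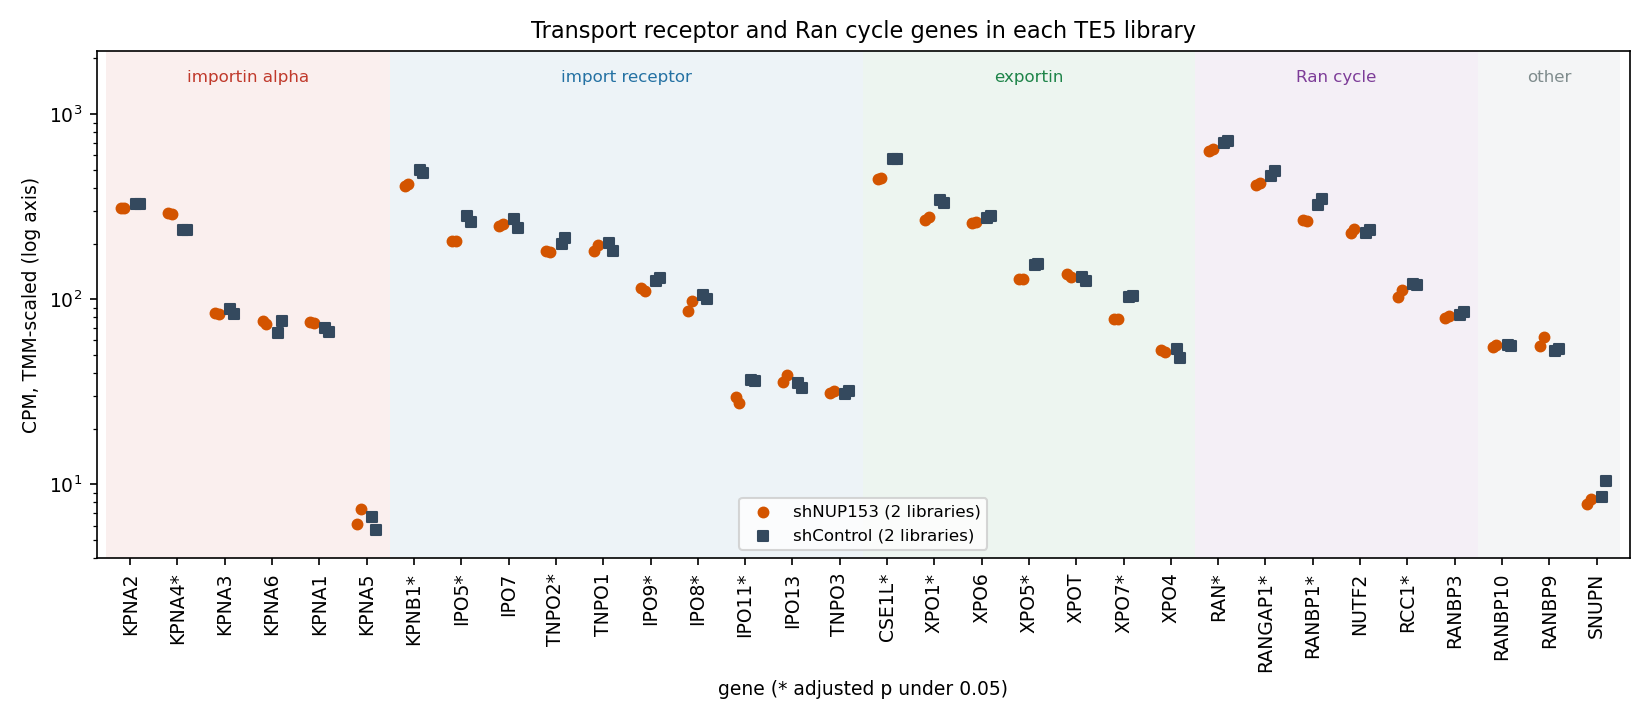
Level of each of the 32 genes in every library, as CPM with TMM scaling on a log axis, grouped by role and ordered by shControl level. Orange circles are the 2 shNUP153 libraries and dark squares the 2 shControl libraries. KPNA4 sits higher in shNUP153, while KPNB1, IPO5, XPO1, CSE1L, XPO7 and RANBP1 sit lower in both shNUP153 libraries than in either shControl library.

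Promoter sequence was compared because many of these genes fell together. RefSeq promoters (GRCh38.p14) matched 27 of the 32 genes by symbol. KPNA4, KPNA5, KPNB1, XPO7 and RANBP1 had no entry. The 250 bases before the annotated start were searched on both strands. The CCAAT box, the letters CCAAT or ATTGG and the usual site of the factor NF-Y, was found in 5 of 11 promoters of genes that fell and in 7 of the 16 others. It is present in 34.7% of 11121 promoters of tested genes. The same letters thus occurred at near equal shares in promoters of genes that fell and of genes without a call. The latter are not shown to be unchanged, and some of them were lower without passing. Shown 5′ to 3′ along the gene's strand, with CCAAT or ATTGG in capitals, are the 3 strongest falls with an entry and holding the box, and KPNA2, which did not pass the test. The bases shown for CSE1L lie at chr20:49046062-49046311 on the plus strand and those for XPO1 at chr2:61538357-61538606 on the minus strand. Those for IPO5 lie at chr13:97953425-97953674 on the plus strand and those for KPNA2 at chr17:68035485-68035734 on the plus strand.
CSE1L: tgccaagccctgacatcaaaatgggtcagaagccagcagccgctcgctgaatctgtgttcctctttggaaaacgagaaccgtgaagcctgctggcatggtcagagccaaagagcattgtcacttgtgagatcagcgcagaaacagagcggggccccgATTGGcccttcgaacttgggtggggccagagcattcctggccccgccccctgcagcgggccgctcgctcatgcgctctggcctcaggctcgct
XPO1: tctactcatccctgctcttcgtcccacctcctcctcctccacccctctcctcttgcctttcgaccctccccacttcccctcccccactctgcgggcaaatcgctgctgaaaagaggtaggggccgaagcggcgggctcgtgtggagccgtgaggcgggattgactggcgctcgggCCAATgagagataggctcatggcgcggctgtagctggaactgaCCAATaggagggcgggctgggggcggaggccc
IPO5: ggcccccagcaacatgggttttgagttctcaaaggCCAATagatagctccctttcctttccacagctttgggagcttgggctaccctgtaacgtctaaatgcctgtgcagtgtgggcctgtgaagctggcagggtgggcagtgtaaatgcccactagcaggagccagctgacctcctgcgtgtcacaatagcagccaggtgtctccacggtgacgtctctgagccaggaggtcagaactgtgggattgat
KPNA2: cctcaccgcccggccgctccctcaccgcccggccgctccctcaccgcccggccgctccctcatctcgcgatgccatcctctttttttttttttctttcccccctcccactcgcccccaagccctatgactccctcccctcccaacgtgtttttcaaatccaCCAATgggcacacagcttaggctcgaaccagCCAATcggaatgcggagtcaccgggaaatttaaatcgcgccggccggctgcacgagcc

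In XPO1 the boxes begin 75 and 32 bases before the start, in KPNA2 89 and 58 bases before it, in CSE1L 93 and in IPO5 215. XPO1 and KPNA2 each hold a pair of boxes in the same orientation, and only XPO1 of this pair of genes passed the test. A match of letters is a description of the sequence and no evidence that a factor binds there.

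Among the other motifs searched, the MYC E-box CACGTG was in 2 of 11 promoters of genes that fell (RAN and TNPO2) and in 2 of the 16 others, against 8.83% of promoters of tested genes. E2F letters (TTTCGCGC, TTTGGCGC or TTTCCCGC) were in 1 of 11 and 1 of 16, against 3.75%. The NRF1 letters GCGCATGC were in 2 of 11 and 1 of 16, against 4.56%. The GC box GGGCGG, the site of SP1, was in 6 of 11 and 14 of 16, against 66.1%. ETS letters (CCGGAAGT) were in 1 of 11 and 1 of 16, against 6.71%. YY1 letters (AAGATGGC) were in 0 of 11 and 1 of 16, against 1.76%. The TATA box TATAAA was in 1 of 11 and 1 of 16, against 5.75%. Letters of these motifs can overlap one another. With at most 2 genes behind most of these counts, they are given as a description and were not tested.

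Among the importin alphas, KPNA4, an adaptor for cargo with classical localization signals, was the gene that rose. It measured 292.5 and 290.1 CPM in the shNUP153 libraries and 238.0 and 237.7 CPM in the shControl libraries. Both shNUP153 libraries lay above both shControl libraries, and the difference was 1.22-fold (log2 fold change 0.29, SE 0.045, edgeR adjusted p = 3.59e-06). Its call held under each alternative, with log2 fold changes of 0.28 to 0.36. A stretch of 142 bp of its exons overlaps the keratin pseudogene KRT8P12 on the opposite strand in the GENCODE 29 annotation, and the difference at that row did not pass the test (log2 fold change −0.036, adjusted p = 0.793).

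KPNA2, which is abundant in proliferating cells, was the importin alpha with the highest CPM. It measured 309.9 and 310.3 CPM in shNUP153 libraries against 327.5 and 326.0 CPM in shControl libraries. The groups did not overlap, but the difference did not pass the test (log2 fold change −0.075, SE 0.044, adjusted p = 0.2045). KPNA3, the closest paralog of KPNA4, had 84.5 and 83.0 CPM in shNUP153 and 88.9 and 83.6 CPM in shControl (log2 fold change −0.041, adjusted p = 0.6239). The rise of KPNA4 was therefore not accompanied by a call for its nearest relative.

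The other importin alphas did not pass either. KPNA1 had 75.7 and 74.8 CPM in shNUP153 and 70.0 and 66.5 CPM in shControl, and it narrowly missed the threshold (log2 fold change 0.14, SE 0.058, adjusted p = 0.0577). It passed with upper-quartile (0.01231) and total-count scaling (adjusted p = 0.005308), under the filter at 5 CPM on average (0.01673) and without shControl replicate 1 (0.02518). KPNA6 (log2 fold change 0.075, adjusted p = 0.3954) and KPNA5 (0.13, adjusted p = 0.5542) had overlapping groups. KPNA6 passed without shControl replicate 2 (log2 fold change 0.19, adjusted p = 0.01998). KPNA5 was the lowest of the 32, at 6.09 and 7.38 CPM in shNUP153 and 6.67 and 5.66 CPM in shControl.

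KPNA7, an importin alpha otherwise known from oocytes and early embryos, is not among the 32 but belongs to the same family. Its counts were 202 and 183 in the shNUP153 libraries and 66 and 74 in the shControl libraries. That is 7.79 and 7.71 CPM in shNUP153 against 2.98 and 2.78 CPM in shControl, a 2.70-fold rise (log2 fold change 1.43, SE 0.17, adjusted p = 1.295e-08). Its fold change exceeded that of each of the 32 genes, from a level below that of every one of them in shControl.

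Per kilobase of transcript, the makeup of the importin alpha family differed between the groups. With each gene's CPM divided by the median length of its protein-coding transcripts in GENCODE 29, KPNA2 held 63.1% and 63.4% of the summed family level in the shNUP153 libraries and 67.4% and 67.5% in the shControl libraries. The share of KPNA4 was 15.4% and 15.3% in shNUP153 and 12.7% and 12.7% in shControl. For KPNA7 it was 2.13% and 2.12% in shNUP153, against 0.823% and 0.772% in shControl. In each of these cases the spread within a group was smaller than the gap between groups. A share within a library does not depend on the scaling between libraries, but the lengths are those of the annotation and not of the transcripts these cells use. With 2 libraries against 2, no exact permutation test can give a two-sided p below 0.333, and the shares are given as a description, without a test.

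**Figure D2:**
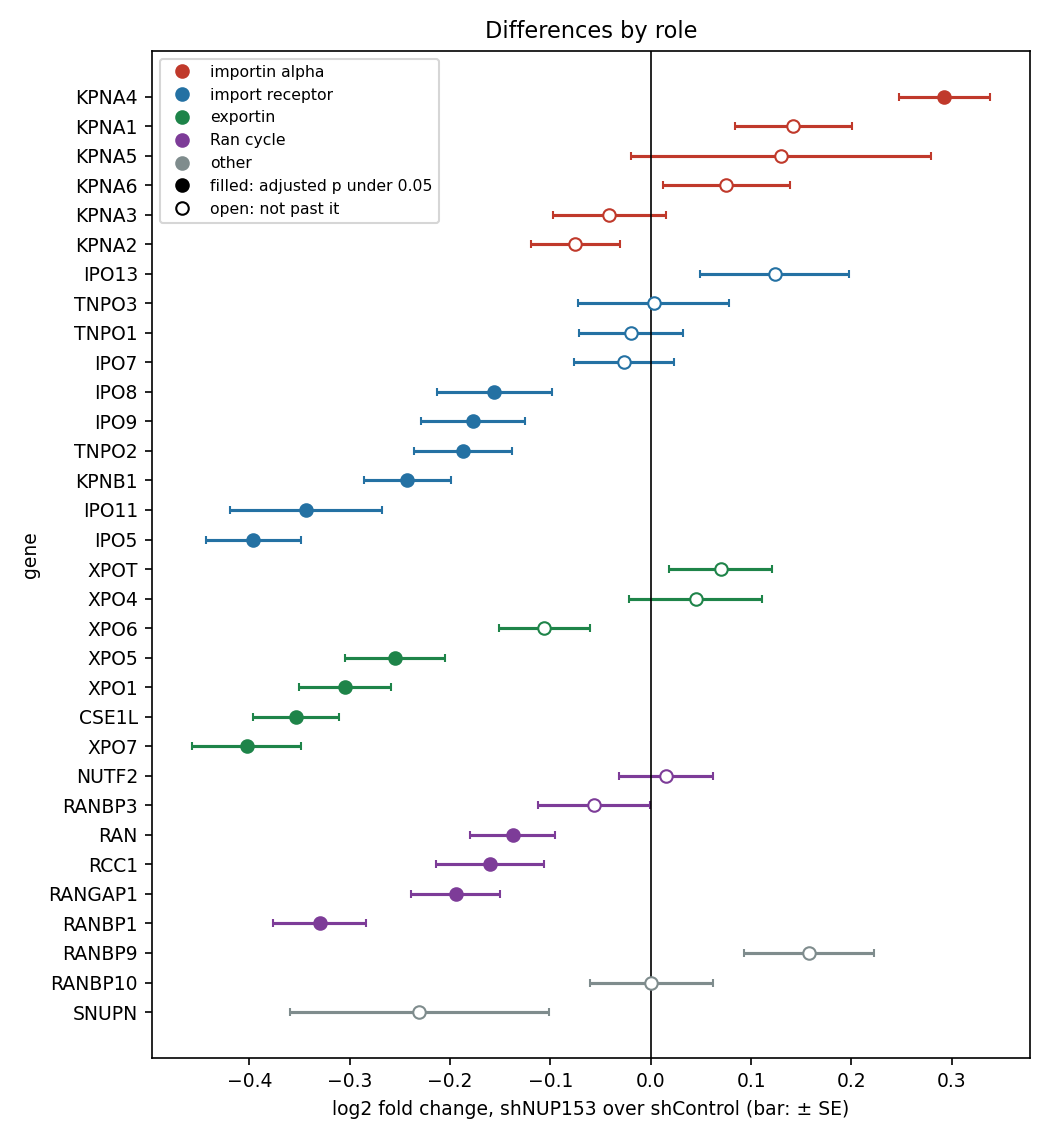
Log2 fold change of each gene (shNUP153 over shControl) with its standard error, derived from the F statistic of the edgeR fit, grouped by role. Filled points passed an adjusted p of 0.05. KPNA4 at 0.29 is the filled point right of 0, and the 14 filled points left of 0 run down to −0.40 for XPO7 and IPO5.

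Among the import receptors, KPNB1, or importin beta, works with the importin alphas and is the most abundant import receptor here by CPM. It measured 410.3 and 418.8 CPM in shNUP153 libraries and 498.7 and 482.3 CPM in shControl libraries. Both shNUP153 values lay below both shControl values, 1.18-fold lower (log2 fold change −0.24, SE 0.044, adjusted p = 3.629e-05). IPO5, which imports ribosomal proteins among other cargo, fell more, to 205.7 and 206.3 CPM in shNUP153, against 280.3 and 262.0 CPM in shControl. Its groups were also separate (1.32-fold lower, log2 fold change −0.40, SE 0.047, adjusted p = 2.928e-08). IPO11, which imports the ubiquitin-conjugating enzyme UBE2E3, fell to 29.8 and 27.4 CPM in shNUP153, against 36.6 and 36.01 CPM in shControl (log2 fold change −0.34, SE 0.076, adjusted p = 0.0005221). These 3 calls held under each of the 13 alternatives.

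Smaller falls were found for TNPO2, IPO9 and IPO8. TNPO2, a close paralog of the transportin gene TNPO1, had 182.1 and 179.4 CPM in shNUP153 and 198.1 and 213.3 CPM in shControl (log2 fold change −0.19, adjusted p = 0.003023), and its call was lost without shNUP153 replicate 1 (0.05191) or shNUP153 replicate 2 (0.08143). IPO9, a receptor for core histones, had 115.5 and 111.1 CPM in shNUP153 and 125.6 and 130.6 CPM in shControl (log2 fold change −0.18, adjusted p = 0.007577). It did not pass without shNUP153 replicate 1 (0.05373), without shNUP153 replicate 2 (adjusted p = 0.1643) or with total-count scaling (0.09369). IPO8, which carries Argonaute proteins, had 86.6 and 97.7 CPM in shNUP153 and 104.9 and 100.4 CPM in shControl (log2 fold change −0.16, adjusted p = 0.03556). Its groups came within a few CPM of each other, and the call ended under 6 of the 13 alternatives (adjusted p = 0.06422 to 0.5646). Those were upper-quartile and total-count scaling, the filter at 5 CPM on average, DESeq2, and leaving out shNUP153 replicate 1 or shControl replicate 1.

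The remaining 4 import receptors did not pass. TNPO1, the receptor for cargo with proline-tyrosine localization signals, had 183.4 and 196.1 CPM in shNUP153 and 202.5 and 182.5 CPM in shControl (log2 fold change −0.020, adjusted p = 0.8112). IPO7, which acts alone or as a dimer with KPNB1, had 249.2 and 256.4 CPM in shNUP153 against 271.9 and 243.3 CPM in shControl (−0.027, adjusted p = 0.7304). TNPO3, the receptor for splicing factors rich in serine and arginine, had 31.0 and 31.99 CPM in shNUP153 and 30.9 and 31.9 CPM in shControl (0.0028, adjusted p = 0.9821). The groups overlapped for all 3. IPO13, which both imports and exports cargo, had 35.9 and 39.0 CPM in shNUP153 and 35.4 and 33.3 CPM in shControl (0.12, adjusted p = 0.2133), and it passed with total-count scaling (adjusted p = 0.04975).

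Among the exportins, CSE1L, which recycles importin alphas, was the most abundant exportin by CPM and fell to 446.6 and 452.7 CPM in shNUP153 libraries, against 574.6 and 574.4 CPM in shControl libraries. The groups were far apart relative to their spread (1.28-fold lower, log2 fold change −0.35, SE 0.043, edgeR adjusted p = 3.543e-08). XPO1, also called CRM1, exports proteins with leucine-rich signals. It had 269.4 and 276.8 CPM in shNUP153 and 344.9 and 329.8 CPM in shControl, again without overlap (log2 fold change −0.30, SE 0.046, adjusted p = 1.922e-06).

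XPO7, a receptor with a broad set of cargoes, had the lowest log2 fold change of the 32 genes, next to that of IPO5 and within their errors of each other. Its levels were 78.6 and 78.0 CPM in shNUP153 and 103.3 and 103.7 CPM in shControl (1.32-fold lower, log2 fold change −0.40, SE 0.054, adjusted p = 2.898e-07). XPO5, the exportin of microRNA precursors, had 128.9 and 129.1 CPM in shNUP153 against 152.3 and 155.5 CPM in shControl (log2 fold change −0.25, SE 0.050, adjusted p = 0.0001089). All 4 of these calls held under every alternative.

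XPO6, XPOT and XPO4 did not pass. XPO6, which exports actin with profilin, had 257.7 and 260.0 CPM in shNUP153 and 275.9 and 281.3 CPM in shControl. Its groups were separate but the adjusted p was 0.07132 (log2 fold change −0.11), and 0.03584 without shControl replicate 1. XPOT, the tRNA exportin, had 137.7 and 132.3 CPM in shNUP153 against 131.4 and 126.1 CPM in shControl (0.070, adjusted p = 0.3196; 0.04336 with total-count scaling). XPO4 had 53.3 and 52.0 CPM in shNUP153 and 54.2 and 48.2 CPM in shControl (0.045, adjusted p = 0.6569). XPO5 and XPOT both export small RNAs, and of these only XPO5 passed the test. The ratio of XPO5 counts to XPOT counts was 0.936 and 0.976 in shNUP153 libraries against 1.16 and 1.23 in shControl libraries.

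In the Ran cycle, RAN, the GTPase at the centre of the cycle, had the highest CPM of the 32 genes, at 634.7 and 648.1 CPM in shNUP153 libraries and 697.1 and 714.1 CPM in shControl libraries. It was 1.10-fold lower (log2 fold change −0.14, SE 0.042, adjusted p = 0.01074). The call was lost with upper-quartile (0.08275) and total-count scaling (adjusted p = 0.181) and without either shNUP153 library (adjusted p = 0.1346 without replicate 1 and 0.05893 without replicate 2). RANBP1, which binds RanGTP and assists its hydrolysis, fell to 267.5 and 265.2 CPM in shNUP153, against 322.9 and 346.5 CPM in shControl (log2 fold change −0.33, SE 0.046, adjusted p = 6.552e-07). RANGAP1, the GTPase activator, had 415.6 and 423.8 CPM in shNUP153 and 466.3 and 494.1 CPM in shControl (log2 fold change −0.19, SE 0.044, adjusted p = 0.0007497). Both of these calls held under all 13 alternatives.

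RCC1, the exchange factor bound to chromatin, had 103.3 and 112.0 CPM in shNUP153 and 121.4 and 119.2 CPM in shControl (log2 fold change −0.16, SE 0.053, adjusted p = 0.01934). It did not pass with upper-quartile scaling (0.09186), total-count scaling (0.1691), DESeq2 (adjusted p = 0.06438) or without shNUP153 replicate 1 (0.3624). NUTF2, the importer of RanGDP, had overlapping groups, at 229.3 and 240.6 CPM in shNUP153 and 228.9 and 235.9 CPM in shControl (log2 fold change 0.015, adjusted p = 0.8417). RANBP3, a cofactor of XPO1, had 79.7 and 81.0 CPM in shNUP153 and 81.8 and 85.1 CPM in shControl (−0.056, adjusted p = 0.4845).

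Annotated neighbours touch several of these genes, and whether counting used strand was not stated. In GENCODE 29, 24.1% of the exon bases of RANBP1 overlap TRMT2A on the opposite strand. TRMT2A measured 50.9 and 46.9 CPM in shNUP153 and 47.4 and 46.5 CPM in shControl (log2 fold change 0.059, adjusted p = 0.542). RCC1 shares 6.63% of its exon bases with the snoRNA host gene SNHG3 on the same strand, and SNHG3 was at 43.4 and 42.0 CPM in shNUP153 and 50.04 and 44.4 CPM in shControl (−0.14, adjusted p = 0.119). XPO5 overlaps POLR1C by 100 bp on the opposite strand (POLR1C log2 fold change 0.14, adjusted p = 0.218). Rows of pseudogenes, taken by symbol, held few reads, but how reads shared with such copies were counted was not stated. Of 27 pseudogene rows named after 8 of the genes, 15 had any count, and together they held 244 counts over the 4 libraries. For RAN, with 9 such rows, they came to 0.188% of the counts of the gene itself.

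Of the other factors, RANBP9 and its paralog RANBP10 were named for binding to Ran and are known as parts of a ubiquitin ligase complex. RANBP9 had 56.2 and 62.8 CPM in shNUP153 and 52.6 and 53.9 CPM in shControl (log2 fold change 0.16, SE 0.064, adjusted p = 0.05809). It passed with upper-quartile (0.01441) and total-count scaling (adjusted p = 0.005747) and under the filter at 5 CPM (0.01861). RANBP10 had 55.6 and 56.8 CPM in shNUP153 and 56.7 and 55.7 CPM in shControl (0.00069, adjusted p = 0.9939). SNUPN, the import adaptor for spliceosomal small nuclear ribonucleoproteins, had 7.86 and 8.39 CPM in shNUP153 against 8.56 and 10.4 CPM in shControl (−0.23, SE 0.13, adjusted p = 0.1777; 0.04178 without shControl replicate 1).

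**Figure D3:**
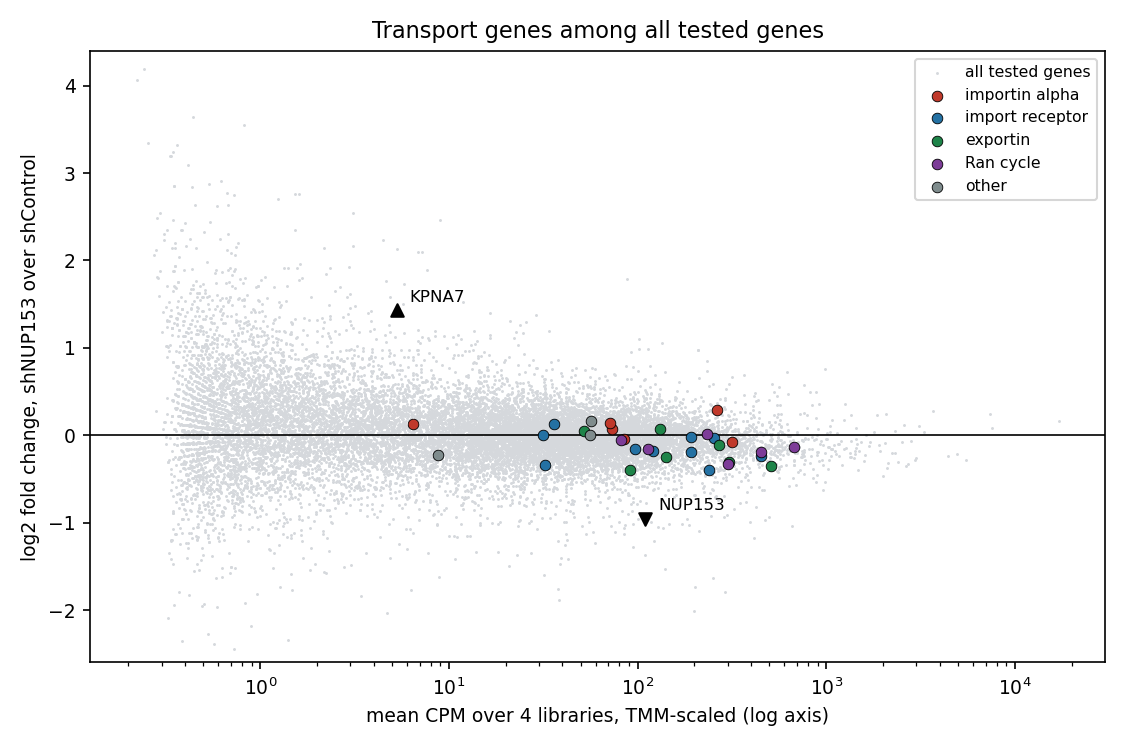
Log2 fold change (shNUP153 over shControl) against the mean CPM over the 4 libraries (log axis) for all 16817 tested genes in grey, with the 32 genes coloured by role and KPNA7 and NUP153 in black. The coloured points lie between −0.40 and 0.29, inside the cloud at their abundance, while KPNA7 lies at 1.43 and NUP153 at −0.96.

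Summed by role, the CPM of the 10 import receptors came to 1529 and 1564 in the shNUP153 libraries and 1785 and 1716 in the shControl libraries, 11.6% lower on average. For the 7 exportins the sums were 1372 and 1381 CPM in shNUP153 against 1637 and 1619 CPM in shControl, 15.4% lower. The 6 Ran cycle genes summed to 1730.2 and 1771 CPM in shNUP153 and 1918 and 1995 CPM in shControl, 10.5% lower. The 6 importin alphas went the other way, at 845 and 839 CPM in shNUP153 and 797 and 796 CPM in shControl, 5.76% higher. KPNA4 alone, at a mean of 291.3 CPM in shNUP153 and 237.8 CPM in shControl, rose by more CPM than this sum. The other importin alphas together were therefore not higher, and KPNA2, the most abundant, was lower in shNUP153. The 3 other genes summed to 119.7 and 128 CPM in shNUP153 and 118 and 120.02 CPM in shControl, with overlapping groups. The sums of the other 4 roles were separate between groups, and such sums are led by the most abundant genes of the role. The medians of log2 fold changes were −0.17 for import receptors, −0.25 for exportins, −0.15 for the Ran cycle and 0.10 for importin alphas. Their signs were the same under all 13 alternatives.

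Without any scaling factor, the 32 genes took 0.575% and 0.576% of all counts in the shNUP153 libraries and 0.614% and 0.608% in the shControl libraries. In bulk RNA, less RNA per cell and fewer cells expressing a gene cannot be told apart.

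Ratios within a library are likewise free of scaling. KPNA4 had 0.713 and 0.693 counts for each count of its partner KPNB1 in the shNUP153 libraries and 0.477 and 0.493 in the shControl libraries, a 1.45-fold higher ratio. The ratio of KPNA4 to its exporter CSE1L was 0.655 and 0.641 in shNUP153 and 0.414 and 0.414 in shControl, 1.56-fold higher. For KPNA2 to CSE1L it was 0.694 and 0.685 in shNUP153 and 0.570 and 0.568 in shControl, 1.21-fold higher. KPNA4 therefore stood higher relative to both its import partner and its exporter, and KPNA2 relative to its exporter, in both shNUP153 libraries.

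Other ratios differed less or lay on the other side. The ratio of RCC1 to RANGAP1, the opposed regulators of Ran, was 0.249 and 0.264 in shNUP153 and 0.260 and 0.241 in shControl, with overlapping groups. That of XPO1 to CSE1L was 0.603 and 0.611 in shNUP153 and 0.600 and 0.574 in shControl, a difference of 1.03-fold. IPO5 and RANBP6 are paralogs, and RANBP6 did not pass the test (log2 fold change 0.17, adjusted p = 0.0961). Their ratio was 6.70 and 6.66 in shNUP153 libraries and 9.96 and 9.78 in shControl libraries, 1.48-fold lower. These pairs restate the values above and were not tested.

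**Figure D4:**
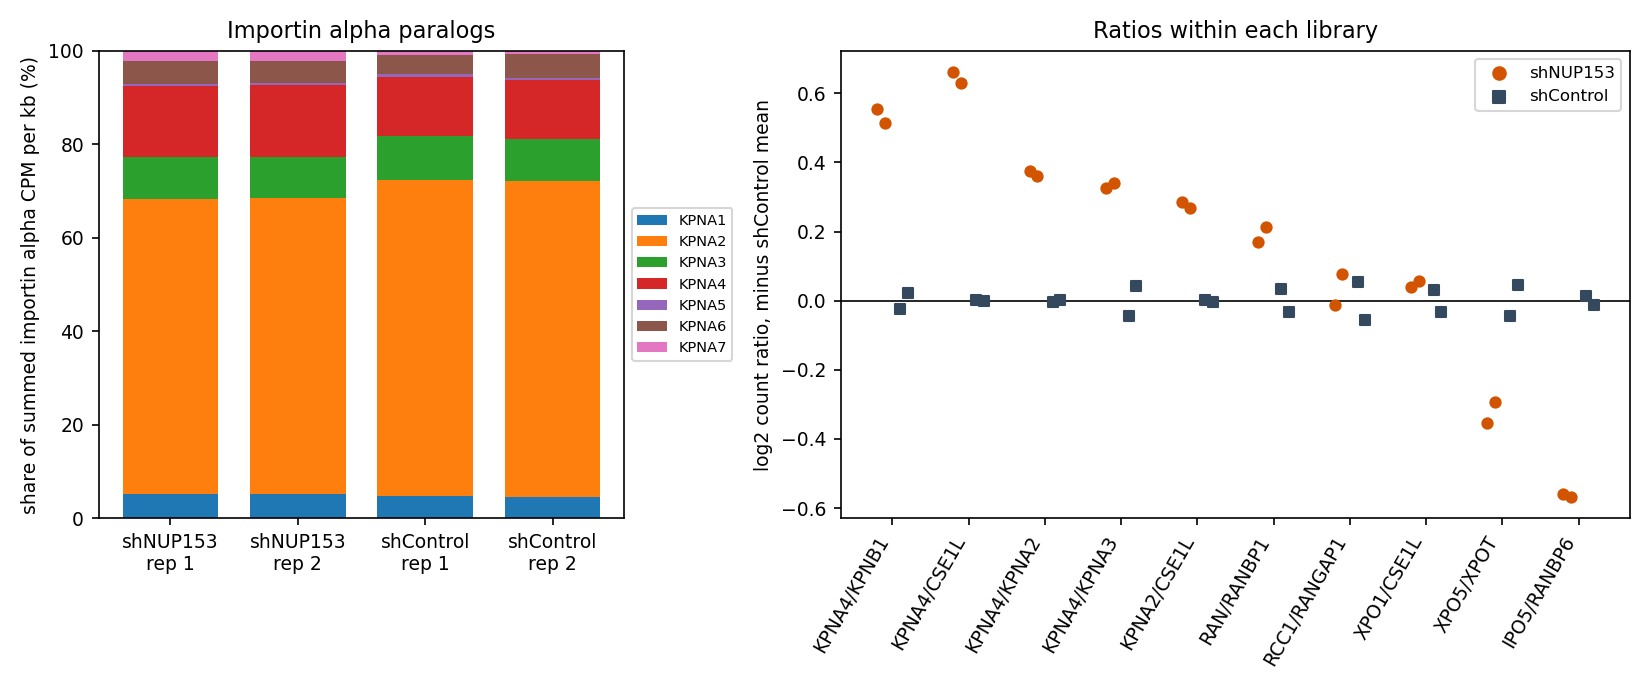
Left, share of each importin alpha gene (KPNA1 to KPNA7) in the summed family CPM per kb, in percent, with 1 bar per library. Right, log2 of count ratios for 10 gene pairs in each library, relative to the shControl mean. The shNUP153 libraries (orange circles) stand above the shControl libraries (dark squares) for the pairs with KPNA4, below them for XPO5/XPOT and IPO5/RANBP6, and overlap them for RCC1/RANGAP1.

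Per kilobase of transcript, RAN, RANBP1 and NUTF2 stood highest of the 32 in both groups, at 435 ± 6.42, 235 ± 1.42 and 199 ± 6.77 CPM per kb in shNUP153 and at 478 ± 8.15, 296 ± 14.8 and 197 ± 4.18 CPM per kb in shControl (SD, n = 2 each). The next 3 places were held in both groups by KPNA2, KPNB1 and CSE1L. In shNUP153 they were at 133.8 ± 0.150, 131.1 ± 1.89 and 128 ± 1.24 CPM per kb, within a narrow band. In shControl they were at 141 ± 0.451, 155 ± 3.67 and 164 ± 0.0383 CPM per kb, in the opposite order. Transcript lengths are taken from the annotation, so neighbours this close may change places under other lengths.

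Further genes of the pathway were counted from a list of 20 that holds other karyopherins, Ran regulators at the pore, cargo adaptors and the pore proteins that receptors bind. Of these, 16 were tested, 4 rose (25%) and 4 fell (25%), with a median log2 fold change of 0.013, against 15.0% higher and 17.4% lower among all tested genes. Besides KPNA7, the risers were AKIRIN2, which serves the nuclear import of proteasomes (1.38-fold, adjusted p = 3.961e-07), PHAX, the export adaptor of small nuclear RNAs (1.17-fold, adjusted p = 0.01047) and NUP50, which helps release cargo from importin alpha (1.13-fold, adjusted p = 0.009093). The call for PHAX was lost with DESeq2 (adjusted p = 0.05039) and without either shNUP153 library (0.08151 and 0.1358). That for NUP50 was lost without either shNUP153 library (adjusted p = 0.07085 and 0.1851) or shControl replicate 2 (0.1383).

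The genes of that list that fell were SENP2, a protease gene whose product sits at the pore (82.0 ± 1.91 CPM in shNUP153 and 110.3 ± 1.91 CPM in shControl, SD, n = 2 each, 1.35-fold lower, adjusted p = 7.783e-08), the cap-binding subunit gene NCBP1 (1.26-fold lower, adjusted p = 5.539e-06), its partner NCBP2 (1.10-fold, adjusted p = 0.0414) and NUP98 (1.17-fold, adjusted p = 0.0006311). NCBP2 did not pass under 8 of the 13 alternatives (adjusted p = 0.05471 to 0.328). RANBP2, the cytoplasmic nucleoporin that holds RANGAP1 at the pore, had 166.3 and 167.3 CPM in shNUP153 and 166.1 and 148.9 CPM in shControl (log2 fold change 0.084, adjusted p = 0.226).

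**Figure D5:**
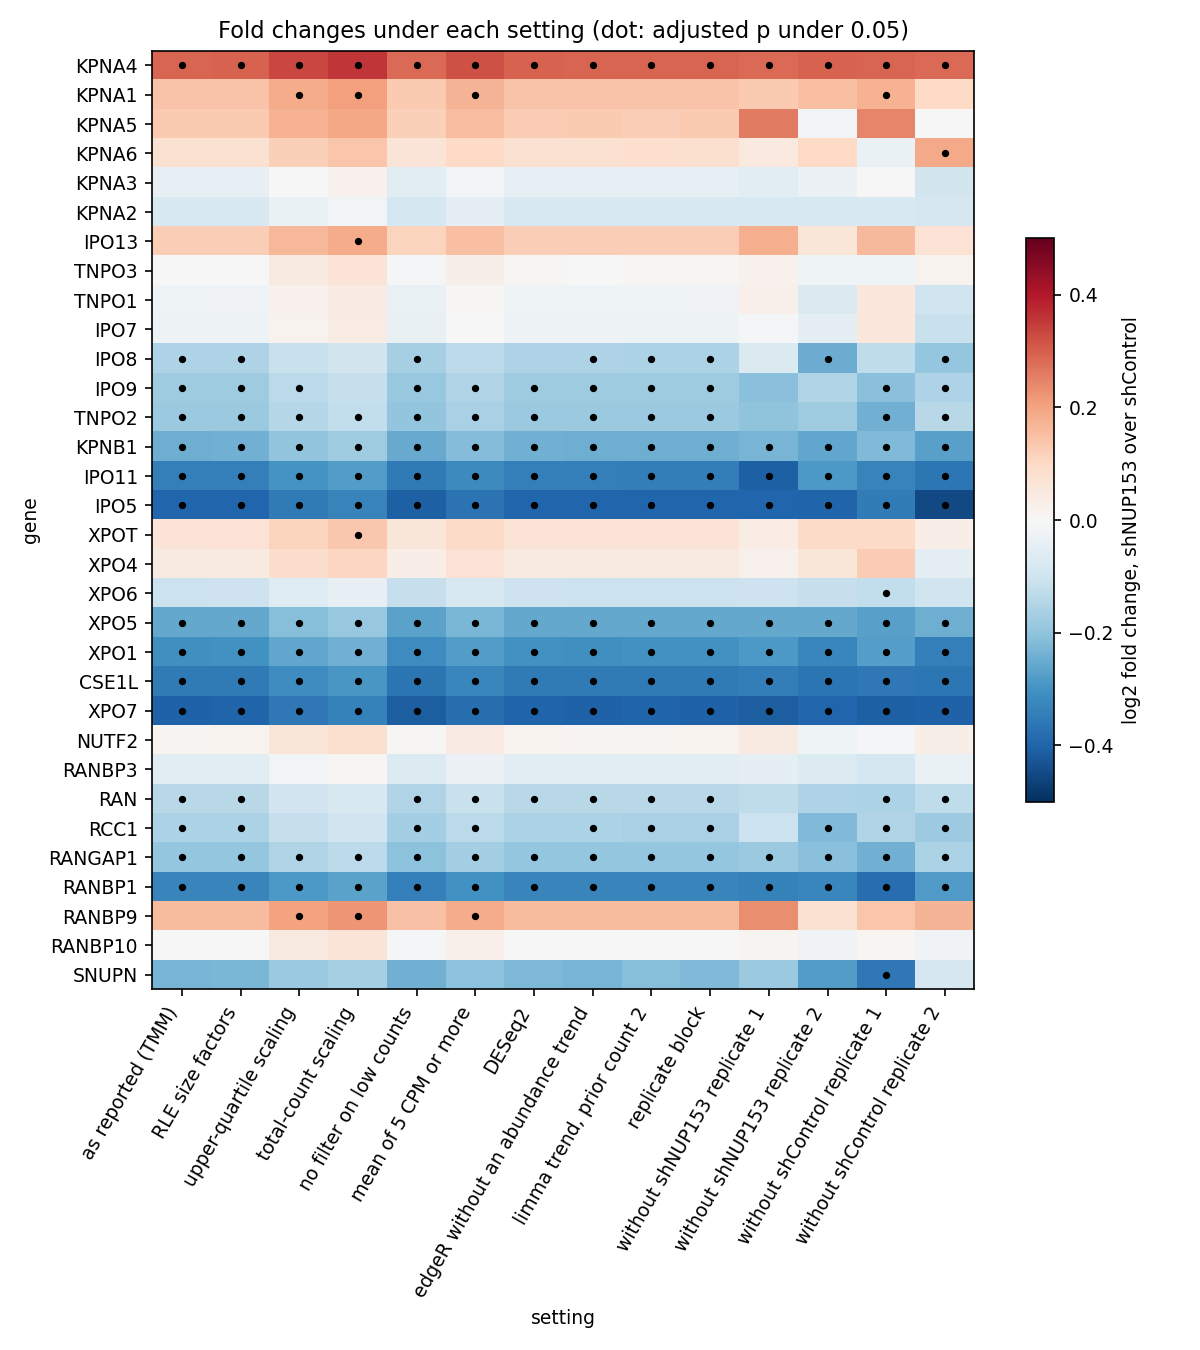
Log2 fold change (shNUP153 over shControl) of each gene as reported and under each of the 13 alternatives, as colour from −0.5 (blue) to 0.5 (red), with a dot where the adjusted p was under 0.05. KPNA4 is red with a dot in every column, and KPNB1, IPO11, IPO5, XPO5, XPO1, CSE1L, XPO7, RANGAP1 and RANBP1 are blue with a dot in every column.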

How the data were processed

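RNA-seq of TE5 cells gave 4 libraries, 2 per group. The authors deposited 1 table whose values are read counts per gene, although its name gives another unit: every value is a whole number, and library totals run from 22606593 to 27396268. The table also holds authors' columns of comparison that were not used. Per the submitters' processing notes, kallisto, DESeq2, Bowtie2 and deepTools were used and hg19 was the build, while the role of each tool, the annotation and the use of strand were not given in the sources used here. The strand and multi-mapping rules of the counting could move reads between overlapping genes and copies.

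Counts were fitted with edgeR 4.0.16 (low counts removed by filterByExpr, minimum 10, total 15, then TMM scaling, quasi-likelihood F test) in R 4.3.3, with Benjamini-Hochberg adjustment over all 16817 tested genes and a threshold of 0.05. The fit compared the 2 groups with no covariate. Standard errors (SE) were derived from it, as the absolute log2 fold change divided by the square root of the F statistic. The steps were tested on simulated counts, fitted over 16505 genes, with known changes put into 200 genes and split over several fold sizes. Of the changed genes, 32% at 1.2-fold and 67.3% at 1.5-fold were recovered. Alternatives were DESeq2 1.42.0, limma 3.58.1, edgeR without an abundance trend, other scalings and filters, a replicate block and leaving out each library. Libraries of a group differed by more than counting noise, with a chi-square of 3.09 per gene for shNUP153 and 3.57 for shControl, so none was a second copy of another. GENCODE 29 (GRCh38) gave names, lengths and overlaps, and RefSeq (GRCh38.p14) the promoters. All 32 genes are given by name, and the further pathway genes are named where they passed the test or are needed beside a result; some genes of that pathway are not reported here. The members and lists were chosen with earlier results of these data known.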

Additional observations from a re-analysis of the deposited data

How the results depend on the processing

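The count of the 32 genes called higher was 3 with upper-quartile scaling, 5 with total-count scaling and 3 under a filter at 5 CPM on average, and 1 to 2 when libraries were left out in turn. The count called lower was 9 to 15 in those leave-one-out fits. For the further pathway genes, 2 to 5 were higher and 3 to 5 lower when libraries were left out. Over all tested genes 3556 were called with DESeq2 and 3072 to 5201 when libraries were left out, against 5448. The median log2 fold change of the 32 was −0.047 (upper quartile), −0.027 (total count), −0.10 (no filter), −0.065 (filter at 5 CPM) and −0.10 to −0.075 (leave-one-out). Under total-count scaling the median of all genes was itself 0.069. NUP153 kept its call under every alternative, at −1.10 to −0.83 when libraries were left out. No paired reading is given, because same-numbered libraries did not deviate together (correlation −0.0036), and the fit with the replicate block called 1 higher and 14 lower of the 32 and 5465 genes in all. Genes that changed sign, none of them called, were KPNA3 (0.0022 with upper-quartile, 0.022 with total-count scaling), IPO7 (0.017 and 0.036), TNPO1 (0.023, 0.043, and 0.0060 filter at 5 CPM), HIKESHI (0.0043 and 0.025), RANBP3 (0.0074, total count), and without a filter TNPO3 (−0.0082), RANBP10 (−0.010) and NMD3 (−0.0027). Leaving out libraries moved HIKESHI over −0.12 to 0.043, IPO7 over −0.11 to 0.052, KPNA5 over −0.013 to 0.26, KPNA6 over −0.032 to 0.19, NMD3 over −0.065 to 0.073, NUTF2 over −0.021 to 0.047, RANBP10 over −0.019 to 0.013, RANBP2 over −0.00041 to 0.16, TNPO1 over −0.10 to 0.053, TNPO3 over −0.021 to 0.023, TPR over −0.072 to 0.10 and XPO4 over −0.047 to 0.13. The cause of these shifts was not tested, beyond the smaller number of libraries where 1 was left out. Fits that leave out a library rest on 1 library in that group, which is assumed to vary like the other group. With 2 libraries a group, 32% of changes at 1.2-fold, 67.3% at 1.5-fold and 82% at 2-fold were recovered in simulated counts. Recovery of changes under 1.2-fold, or at the abundance of the 32 genes alone, was not tested. Genes without a call are not shown to be equal between groups.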

Other observations

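Of the further karyopherin and Ran genes in the table, 4 had too few counts to be tested. IPO4, an importin of histones and other cargo, had 5 and 2 counts in the shNUP153 libraries and 4 and 4 in the shControl libraries. In GENCODE 29, 95.2% of its exon bases are also annotated to another gene on the same strand, AL136295.4, which had 0 counts in all 4 libraries. RANGRF, a Ran-binding factor, had 0 and 7 counts in shNUP153 and 2 and 1 in shControl, and 78.5% of its exon bases overlap SLC25A35 on the opposite strand, a row with 190 and 134 counts in shNUP153 and 161 and 200 in shControl. RANBP17 (1 and 1 counts in shNUP153, 0 and 1 in shControl) and RANBP3L (2 and 3 in shNUP153, 2 and 2 in shControl) were near 0. Whether the annotation behind the counts or the cells set these low values was not tested.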
